A study of Mus musculus with 45 samples.

Results

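The genes described here encode the proteins of the cytosolic ribosome, measured by bulk RNA sequencing of mouse liver lysate. Members were the entries of the deposited table named Rpl or Rps followed by a digit, with Rplp0, Rplp1, Rplp2 and Rpsa, and without the Rps6k kinases and names marked as pseudogenes by -ps. This gave 89 of 24972 entries. Of these, 77 are the standard proteins of the ribosome, 46 of the large (60S) and 31 of the small (40S) subunit, here called the 80S genes. The other 12 are paralogs, retrocopies or like-named genes: Rpl3l, Rpl7l1, Rpl10l, Rpl22l1, Rpl32l, Rpl36al, Rpl37rt, Rpl39l, Rps4l, Rps27l, Rps27rt and Rps19bp1, which encodes a binding partner of Rps19 and no ribosomal protein.

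Wild-type mice received the Lieber-DeCarli liquid diet, either its control form or its ethanol form, for 6 weeks. Livers were labelled as peak injury at that point, as early resolution after a further 3 days on the control form, or as late resolution after a further 2 weeks on it. Stage, diet label and sex label gave 12 groups and 45 libraries, with 4 libraries in 9 groups. Early ethanol female, late ethanol female and late ethanol male had 3. All groups share the WT genotype, and a liver lysate holds every cell type of the organ, so that fewer cells of a type and less RNA per cell cannot be told apart. The hepatocyte marker Alb stood at 49422 to 170591 TPM (TPM is a level per transcript length, scaled to the same total in each library) over all libraries. Whether each library of a group is its own animal is not stated, and p-values therefore cover only the spread among libraries, which may be technical.

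Transcripts of the sex chromosomes followed the diet label and not the sex label. In the 21 ethanol-labelled libraries Xist, made from the inactive X chromosome, stood at 13.7 to 51.8 TPM and Y-linked Eif2s3y at 0 to 0.0386 TPM. In 23 control-labelled libraries Xist stood at 0.00165 to 0.349 TPM and Eif2s3y at 7.83 to 12.6 TPM. The exception was late control female 1, with Xist at 39.5 TPM and Eif2s3y at 0. In all, 22 of 45 libraries went against their sex label. Groups are given here as labelled, and diet label and sex-chromosome status cannot be told apart in any comparison below. A library of its own kind was peak ethanol female 1, in which 59 genes passed 10 TPM while staying under 0.5 TPM in every other library. Fast skeletal muscle genes led them, with Myh1 at 917 TPM and Ckm at 641 TPM, and only 1 other library had any such gene.

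Ribosomal protein genes are a classic coregulated set. Their mRNAs begin with a 5′ terminal oligopyrimidine (TOP) tract, a C at the cap followed by a run of C and T, through which mTORC1 signalling sets their translation. Subunits are built in near equal numbers, and a surplus of free protein is degraded, while free Rpl5 and Rpl11 can bind Mdm2 and stabilise p53. Hepatocytes, which export large amounts of protein, are rich in ribosomes.

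Start-site sequences were read from RefSeq promoters of GRCm38.p6, the build of the deposited data under its other name, mm10, and 68 members were matched. The first 4 are shown because they carry the TOP tract that defines the set at the annotated start or within a few bases of it. Each run holds 30 bases before and 30 from the start site on, and capitals mark the pyrimidine run.

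Rps6, chr4:86857338-86857397, minus strand: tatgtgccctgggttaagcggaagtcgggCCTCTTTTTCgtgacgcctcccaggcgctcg
Rps18, chr17:33955636-33955695, minus strand: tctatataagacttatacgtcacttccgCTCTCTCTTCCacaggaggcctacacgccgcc
Rpl38, chr11:114668550-114668609, plus strand: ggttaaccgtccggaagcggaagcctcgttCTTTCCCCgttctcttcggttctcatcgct
Rplp2, chr7:141447621-141447680, plus strand: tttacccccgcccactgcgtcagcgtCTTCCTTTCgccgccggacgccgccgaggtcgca

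A run of at least 8 pyrimidines that begins with C occurred in 43 of 57 80S promoters (75.4%), against 23.0% of 27025 promoters. The window searched reached from 30 bases before the start to 50 after it, farther than the stretches shown. The letters CTCTTTC, which can lie inside such a run, were found on the transcribed strand of 19.3% of the 80S windows and 1.05% of all. CCGGAAG, the core bound by ETS factors such as GABP, was found on either strand in 40.4% of the 300-base 80S promoters and 9.12% of all. A match of letters describes the window and does not show a bound factor.

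The next pair is shown because its letters bear on which gene the reads were assigned to. Capitals mark the 29 bases that Rps27 and its retrocopy Rps27rt have in common at their starts.

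Rps27, chr3:90213619-90213678, minus strand: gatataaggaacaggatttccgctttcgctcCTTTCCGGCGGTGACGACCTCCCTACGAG
Rps27rt, chr9:114982710-114982769, minus strand: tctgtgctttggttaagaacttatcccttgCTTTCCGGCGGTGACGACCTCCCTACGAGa

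Before the shared stretch the letters of these genes differ. Rps27rt had 91.1% of its transcript 50-mers in common with Rps27 and a mean of 547 TPM, whereas Rps27 itself, a zinc-finger protein of the small subunit, was listed at 2.06 TPM. Their relative levels therefore depend on how shared reads were assigned, which is not given in the sources used here.

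Mean levels of the 80S genes ran from 2.06 TPM (Rps27) to 1059 TPM (Rpl10), with a median of 333 TPM. Of 77 genes, 72 lay between 100 and 1100 TPM. The highest were Rpl10, a late-joining 60S protein on the X chromosome (X:74270812-74273135 by GENCODE M21), at 1059 TPM, Rpl4 at 969 TPM, Rpl7a at 739 TPM, Rps3a1 at 640 TPM and Rpl7 at 625 TPM. The 5 genes under 40 TPM were Rps27, Rpl30 at 10.1 TPM, Rpl34 at 12.2 TPM, Rps15a at 28.0 TPM and Rps20 at 31.9 TPM. The 80S genes lie on 19 chromosomes, 14 of them on chromosome 7 and 4 on X.

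Several low or unstable values had a near-identical copy at a high value. Rpl30 shared 22.5% of its 50-mers with Gm12191, which stood at 244 TPM. Rpl34 shared 11% with Rpl34-ps1 at 271 TPM, and the sum of both ran from 209 to 427 TPM. Rpl26 (chr11, 68901583 to 68906989), a 60S protein at the tunnel exit, was the only 80S gene listed at 0 in any library. It stood at 0 in 11 libraries, 7 of 24 control-labelled and 4 of 21 ethanol-labelled. Gm15772, with which it shared 37.4% of its 50-mers, stood at 237 to 491 TPM in those 11 libraries and at 32.6 to 475 TPM in the others. Their sum was never below 227 TPM (median 319 TPM), and the pair correlated at r = -0.75 over 45 libraries. Over the whole 80S list a median of 35.8% of 50-mers occurred in another annotated gene, 55 of 77 genes shared at least 25% and 21 at least 50%, so single-gene levels in this family are uncertain to that extent.

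**Figure D1:**
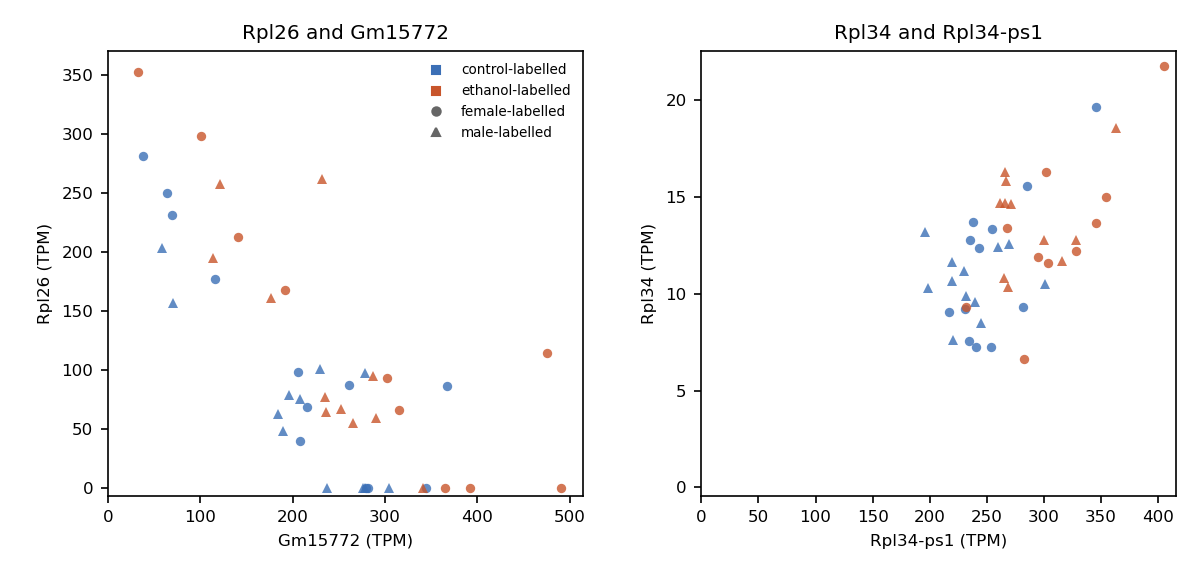
Deposited TPM of Rpl26 against Gm15772 (left) and of Rpl34 against Rpl34-ps1 (right) in each of the 45 libraries (blue control-labelled, orange ethanol-labelled; circles female-labelled, triangles male-labelled). Rpl26 lies at 0 in 11 libraries, in all of which Gm15772 is at 237 TPM or more, and Rpl34 lies far below Rpl34-ps1 in every library.

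The paralogs differed widely in level. Rps27l, a p53-responsive relative of Rps27, averaged 185 TPM, and Rpl36al, a copy of Rpl36a, averaged 235 TPM. Rpl7l1 averaged 60.5 TPM, Rpl22l1, the paralog of Rpl22, averaged 57.5 TPM, and Rps19bp1 averaged 15.9 TPM. Rpl37rt, which had 81.2% of its 50-mers in common with Rpl37, averaged 15.7 TPM, and Rps4l, annotated as a transcribed processed pseudogene, averaged 12.2 TPM. Rpl10l, Rpl32l and Rpl39l averaged under 0.5 TPM and were not tested, which left 86 members. Rpl3l (chr17, 24727820 to 24736143), the striated-muscle form of Rpl3, stood at 51.9 TPM in peak ethanol female 1, the library with muscle transcripts, and at no more than 0.443 TPM elsewhere.

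The summed 80S share of all TPM ran from 2.05% in late control male 3 to 4.21% in early ethanol female 2, a 2.05-fold range. At peak the control-labelled groups averaged 2.75% ± 0.40 (SD, n = 4, female-labelled) and 2.56% ± 0.38 (n = 4, male-labelled), and the ethanol-labelled groups 3.03% ± 0.13 (n = 4) and 2.84% ± 0.24 (n = 4). At early resolution the control-labelled groups averaged 2.64% ± 0.21 (n = 4) and 2.45% ± 0.11 (n = 4), and the ethanol-labelled groups 3.35% ± 0.75 (n = 3) and 2.97% ± 0.48 (n = 4). By late resolution these were 2.50% ± 0.29 (n = 4) and 2.17% ± 0.14 (n = 4) against 3.13% ± 0.23 (n = 3) and 2.88% ± 0.16 (n = 3). The mean share was thus higher in the ethanol-labelled group in all 6 pairs, but diet ranges overlapped at every stage. The overlap was narrowest late, at 2.05% to 2.83% control-labelled against 2.77% to 3.39% ethanol-labelled. It rested on late control female 1 at 2.83%, the control-labelled library with high Xist, and the next highest of that label was late control female 3 at 2.60%.

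**Figure D2:**
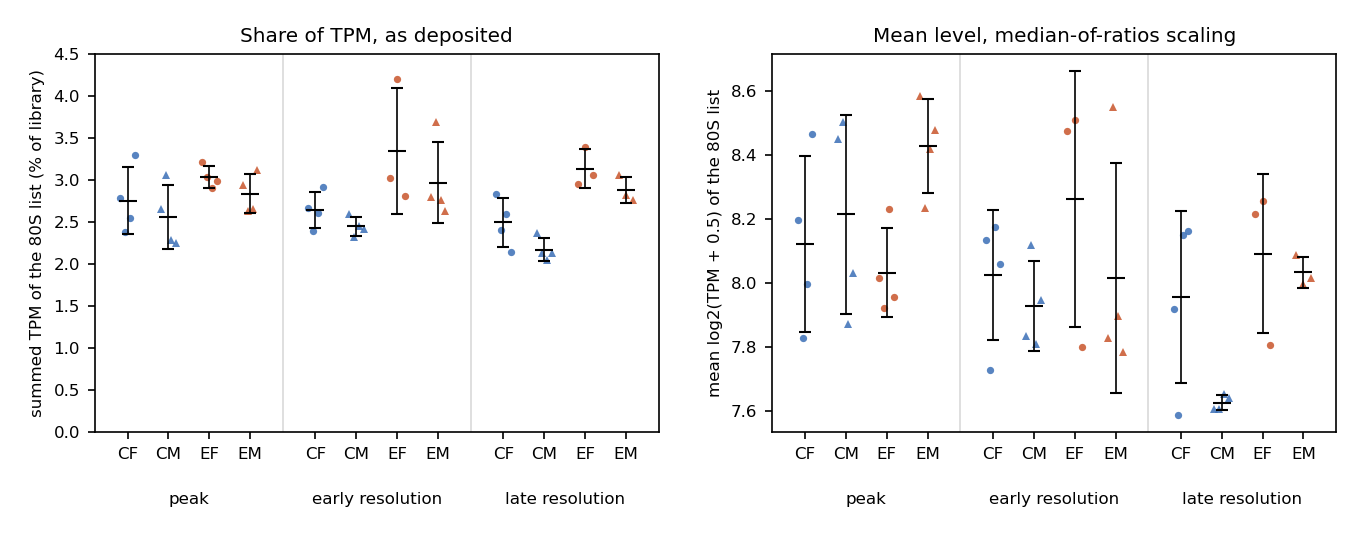
Share of all TPM held by the 80S genes as deposited (left) and their mean log2(TPM + 0.5) after median-of-ratios scaling (right) in each library (points), with the group mean and SD (bars), by stage, diet label (C control, E ethanol) and sex label (F, M). In the share, early ethanol female 2 is the highest at 4.21% and late control male 3 the lowest at 2.05%.

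TPM are shares of a fixed total, so a few abundant liver transcripts can move every other value. Values were therefore also taken after median-of-ratios scaling, which sets the typical gene of each library equal. This scaling moved the median diet difference of all 11244 tested genes from 0.13 to -0.03 on the log2 scale at early resolution, and the median difference between sex labels at peak from -0.29 to 0.01. On the scaled values the mean log2 level of the 80S genes at peak was 8.12 ± 0.27 in control female and 8.03 ± 0.14 in ethanol female (SD, n = 4 each), the pair in which the ethanol-labelled group was lower. In male-labelled libraries at peak it was 8.21 ± 0.31 against 8.43 ± 0.15 (n = 4 each). Early levels were 8.03 ± 0.20 (n = 4) against 8.26 ± 0.40 (n = 3) in female-labelled and 7.93 ± 0.14 against 8.02 ± 0.36 (n = 4 each) in male-labelled libraries, but the early median over both sex labels was 8.003 in control-labelled and 7.899 in ethanol-labelled libraries. Late levels were 7.96 ± 0.27 (n = 4) against 8.09 ± 0.25 (n = 3) in female-labelled and 7.63 ± 0.02 (n = 4) against 8.03 ± 0.05 (n = 3) in male-labelled libraries. The last pair was the only one of the 6 whose libraries did not overlap on this scale.

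The 80S genes moved together from library to library. After scaling, 64 of 77 correlated above 0.8 with the mean of the others over 45 libraries (median r 0.92, and 0.89 within groups), and 1 component held 66.9% of their variance. These correlations describe points that share a library, its scaling and its depth. The members with the lowest correlations were Rpl3l (r = -0.07), Rps4l (0.23), Rpl26 (0.27), Rpl7l1 (0.39), Rpl30 (0.41), Rpl22l1 (0.53), Rps27 (0.57) and Rpl3 (0.60). Shared 50-mers were not particular to such members, since Rpl24 shared 81.7% of its 50-mers and had r = 0.97. Outside the family the genes most like the 80S mean over the 45 libraries included Tpt1 (r = 0.95), itself a TOP mRNA, Btf3 (0.94), and the copies Rpl34-ps1 (0.94) and Gm12191 (0.94).

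**Figure D3:**
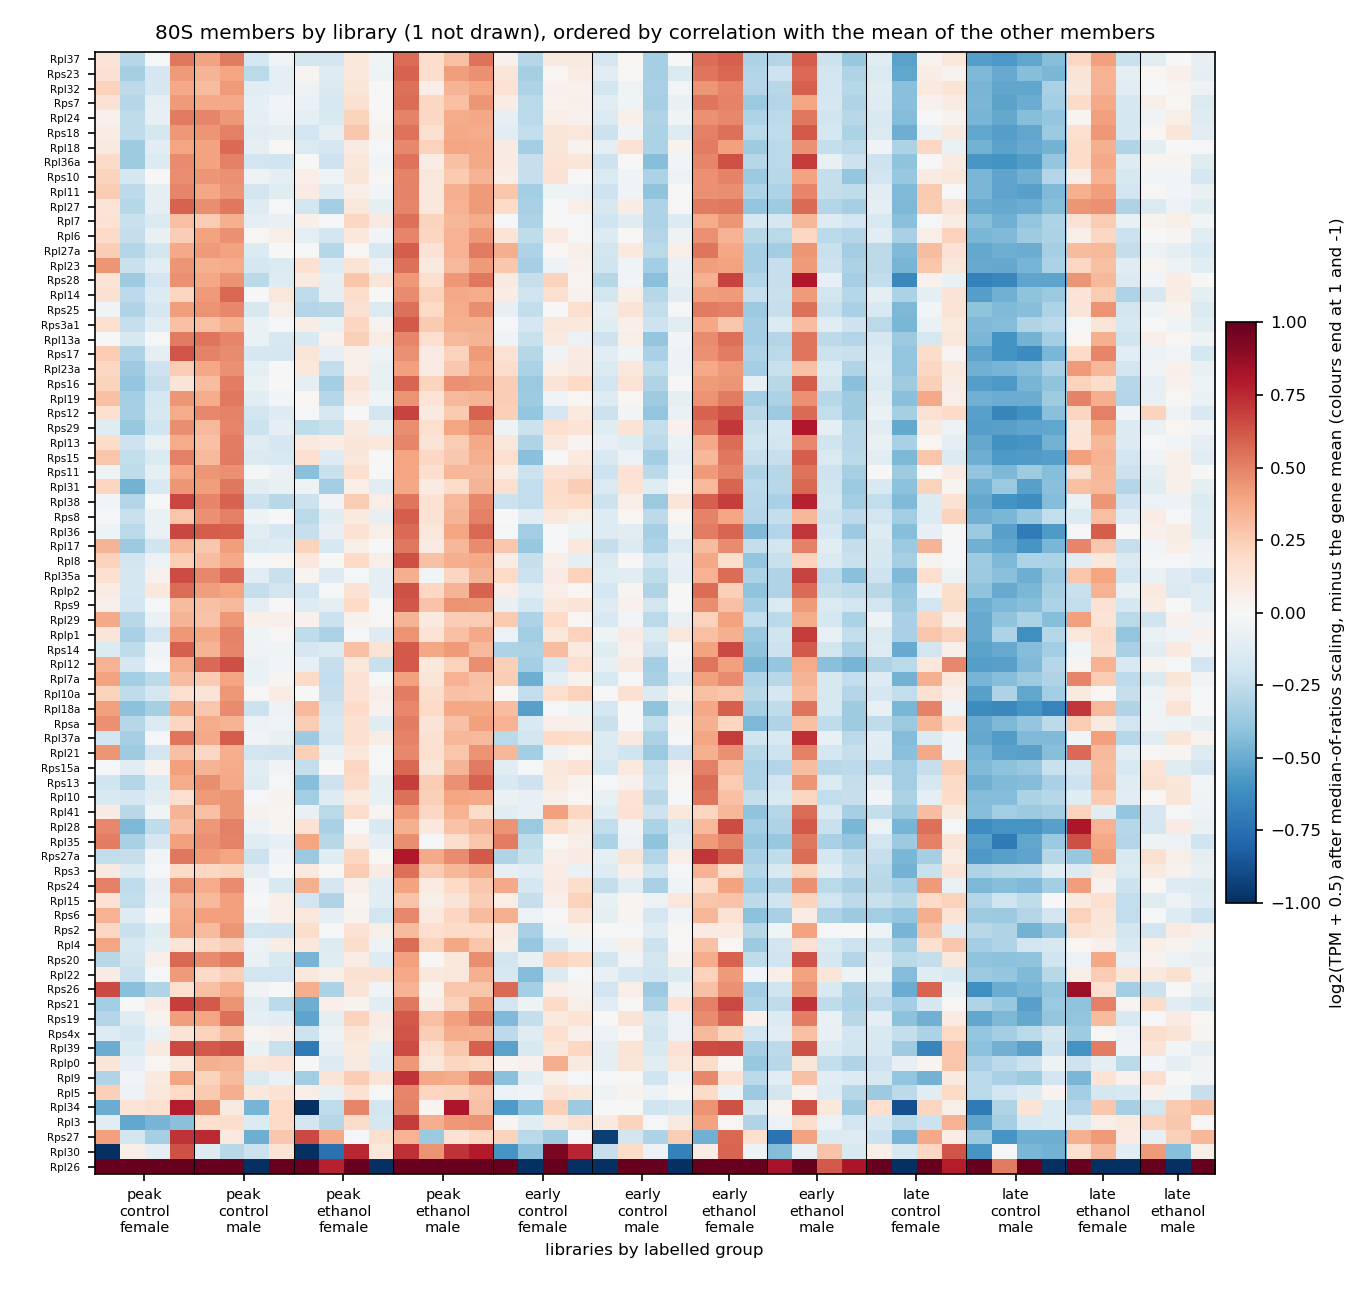
Log2 level of the 80S genes (1 is not drawn) in each library after median-of-ratios scaling, as the difference from the gene's mean over 45 libraries (colours end at 1 and -1). Libraries are ordered by stage, diet label and sex label, and genes by their correlation with the mean of the others. Whole columns are mostly of 1 colour, so most genes are high or low in the same libraries, while Rpl26 in the bottom row and Rpl30 above it have patterns of their own.

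The level of the set also moved with a property of the libraries as a whole. Over 6064 genes that are no members, each library's deviation from the gene mean was ranked against transcript length, and this length correlation ran from -0.52 to 0.50 between libraries. The 80S genes have short transcripts, with a median of 1094 bases against 2854 bases for the genes used. The 80S share of TPM correlated with the length correlation at Pearson r = -0.71 and Spearman rho = -0.65 over 45 libraries (permutation p = 1.0e-05 for each, the smallest 100000 resamples can give; adjusted over 4 relations 1.3e-05 and 2.0e-05). Without the 2 farthest libraries r was -0.67, and within groups it was -0.74. For the scaled mean log2 level, r was -0.79 and rho -0.81 (permutation p = 1.0e-05 for each, adjusted 1.3e-05 and 2.0e-05), with -0.76 without the 2 farthest and -0.82 within groups. Correlations with a like measure of GC content were r = 0.69 (rho = 0.66) for the share and r = 0.48 (rho = 0.46) for the scaled level, with permutation p of 1.0e-05 and 0.00138 for r. The 4 late control male libraries had length correlations of 0.40 to 0.50, the highest of any group, and the lowest group mean of the scaled 80S level. A fit that carries this measure as a covariate, added after the data were seen, is given beside the counts of members at each stage and beside some of the members described.

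At peak injury 9 members were higher and 1 was lower in ethanol-labelled liver, at an adjusted p under 0.05 in limma, which compares group means over all 11244 tested genes. The share of all genes called was 17.3% higher and 9.81% lower, so 9 of 86 is below the background. The median difference of the members was 0.14 on the log2(TPM + 0.5) scale against 0.05 over all genes. Those that rose included Rpl3, Rpl4, Rpl7 and Rpl8 of the large subunit and Rps3, Rps3a1, Rps4x and Rps9 of the small. The count was 6 without peak control female 2 and 16 without peak control female 4.

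Rpl3 (chr15, 80077791 to 80091868, minus strand), the 60S protein nearest the peptidyl transferase centre, stood apart at peak. Its lowest, median and highest TPM were 399, 470 and 548 in the 8 control-labelled libraries and 560, 607 and 691 in the 8 ethanol-labelled libraries. The ranges did not overlap, as was so for 2.16% of all genes in this direction. The difference was 0.41 ± 0.07 (SE) on the log2 scale (limma, adjusted p = 7.7e-05), and 0.32 ± 0.10 after scaling (adjusted p = 0.0083). With the length covariate it was 0.40 ± 0.07 as deposited and 0.33 ± 0.09 scaled (adjusted p = 4.8e-05 and 0.0044). Of its 50-mers, 67.1% occur in other genes of the annotation, mostly Rpl3-ps1. At peak the libraries whose sex-chromosome transcripts match the label are ethanol female and control male only. The scaled difference between these groups was -0.22, a contrast that crosses diet label and sex label and is no diet difference within a sex label.

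Rps3, a small-subunit protein which carries the KH domain at the mRNA entry, differed at peak by 0.27 ± 0.07 (limma, adjusted p = 0.0018), and by 0.19 ± 0.08 after scaling (adjusted p = 0.080).

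The member that fell at peak was the pseudogene Rps4l (chr6, 148354656 to 148355598). It ran from 9.84 through a median of 13.2 to 17.9 TPM in control-labelled and from 5.64 through 8.12 to 11.1 TPM in ethanol-labelled libraries, with a small overlap. The difference was -0.67 ± 0.22 (limma, adjusted p = 0.019), and -0.75 ± 0.24 after scaling (adjusted p = 0.013). Its level at late resolution differed by 0.05 ± 0.23 (adjusted p = 0.91).

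After scaling, only Rpl3 remained higher and Rps4l lower at peak, against 15.0% and 20.7% of all genes, and the members' median difference was 0.06 against -0.02 overall. The length covariate moved the peak counts the other way: 34 members were higher and 1 was lower as deposited, against 20.5% and 12.2% of all genes, and 15 and 1 after scaling, against 17.8% and 24.9%. Length correlations at peak ran from -0.51 to 0.32 in control-labelled and from -0.07 to 0.23 in ethanol-labelled libraries.

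At early resolution 46 of 86 members were higher in ethanol-labelled liver and none was lower, against 14.3% and 2.46% of all genes. The median difference was 0.30 against 0.13 overall. Both subunits took part, with 23 of 46 genes of the 60S list and 21 of 31 of the 40S list. This count rested on 1 library: without early ethanol female 2, the library with the highest 80S share, 3 members were higher.

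Rpl22 (chr4, 152325742 to 152334071, plus strand), a 60S protein that also binds viral and cellular RNA and regulates its paralog Rpl22l1, held on both scales. Early control-labelled libraries ran from 81.0 through a median of 90.1 to 110 TPM, and early ethanol-labelled libraries from 107 through 136 to 170 TPM. Their ranges overlapped by a few TPM, and all 7 ethanol-labelled libraries lay above the control mean of their sex label. The difference was 0.52 ± 0.10 (limma, adjusted p = 0.00056), and 0.34 ± 0.09 after scaling (adjusted p = 0.0070). With the length covariate it was 0.48 ± 0.10 as deposited and 0.27 ± 0.05 scaled (adjusted p = 0.00067 and 0.00047).

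Rpl7, a 60S protein, ran from 472 through a median of 554 to 628 TPM in early control-labelled and from 639 through 668 to 976 TPM in early ethanol-labelled libraries. The ranges did not overlap, which was also so for Rpl9 and Rps3 and for 1.85% of all genes. Rpl7 differed by 0.41 ± 0.08 (limma, adjusted p = 0.00049), but by 0.23 ± 0.10 after scaling (adjusted p = 0.11). Larger deposited differences were found for Rpl34, at 0.56 ± 0.18 (adjusted p = 0.029), and Rpl37rt, at 0.53 ± 0.14 (adjusted p = 0.0071), both at low levels beside an abundant copy. After scaling neither passed (0.39 and 0.35, adjusted p = 0.20 and 0.16).

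Scaling removed nearly all of the early calls. Rpl22 alone was higher and none was lower, against 7.62% and 9.12% of all genes, and the members' median was 0.12 against -0.03 overall. With the length covariate 51 members were higher and none lower as deposited, against 18.8% and 2.66% of all genes. With covariate and scaling together Rpl22 was higher and Rplp0 lower, against 8.72% and 11.4%. Early ethanol-labelled libraries had length correlations from -0.52 to 0.16, and early control-labelled libraries from -0.29 to 0.32.

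Late resolution gave the highest deposited count. There, 62 of 86 members were higher in ethanol-labelled liver and none was lower, against 8.82% and 3.98% of all genes, with a median difference of 0.37 against 0.05. This held for 34 of 46 genes of the 60S list and 26 of 31 of the 40S list. Called differences ran from 0.22 (Rpl4) to 0.61 (Rps28). Without late ethanol female 2 the count was 36, and over all single libraries left out it ran from 36 to 66.

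Rps28 (chr17, 33819027 to 33824562, minus strand), a small protein at the mRNA exit of the 40S subunit, ran from 189 through a median of 199 to 271 TPM in the 8 late control-labelled and from 296 through 311 to 364 TPM in the 6 late ethanol-labelled libraries. The ranges did not overlap, as was so for Rpl7 and Rpl10a and for 0.391% of all genes in this direction. The difference was 0.61 ± 0.12 (limma, adjusted p = 0.00090), and 0.53 ± 0.16 after scaling (adjusted p = 0.017). With the length covariate it was 0.40 ± 0.08 as deposited (adjusted p = 0.00093) and 0.25 ± 0.09 scaled (adjusted p = 0.061).

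Rps27rt, the retrocopy shown above, ran from 335 through a median of 405 to 560 TPM and from 520 through 659 to 703 TPM in the same order. The difference was 0.59 ± 0.13 (limma, adjusted p = 0.0024), or 0.50 ± 0.15 scaled (adjusted p = 0.020). The length covariate gave 0.40 ± 0.10 as deposited (adjusted p = 0.0094) and 0.24 ± 0.10 scaled (adjusted p = 0.094). Rpl22 ran from 71.8 through 89.6 to 121 TPM in control-labelled and from 111 through 127 to 151 TPM in ethanol-labelled libraries. After scaling its late ranges no longer overlapped, the only member so, against 0.560% of all genes. Its difference was 0.47 ± 0.11 (limma, adjusted p = 0.0028), and 0.39 ± 0.09 scaled (adjusted p = 0.0027), and 0.24 ± 0.06 with scaling and length covariate together (adjusted p = 0.0046).

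After scaling 10 members remained higher late and none was lower, against 8.56% and 12.5% of all genes, with a median of 0.29 against -0.02. They included Rps28, Rps27rt, Rpl36 (0.45), Rps15, Rps18 (0.40), Rpl22, Rpl21 (0.39), Rpl13 (0.36) and Rpl7 (0.33). That count was 1 without late ethanol female 1 and 30 without late ethanol female 3. Libraries whose sex-chromosome transcripts match the sex label allowed only late ethanol female against late control male. There 41 members were higher on the scaled values, against 13.8% of all genes. This contrast crosses diet label and sex label and is no diet difference within a sex label. Length correlations ran from -0.46 to 0.20 in late ethanol female and from 0.40 to 0.50 in late control male libraries. With the length covariate 27 were higher as deposited and none was lower, against 7.61% and 2.44% of all genes, and with scaling as well Rpl22 was higher and Rps19bp1 lower, against 5.91% and 7.82%. Late control-labelled libraries had length correlations from -0.38 to 0.50 (median 0.37) and late ethanol-labelled libraries from -0.46 to 0.26 (median 0.04). Female-labelled ranges overlapped, at -0.38 to 0.34 control-labelled and -0.46 to 0.20 ethanol-labelled. Male-labelled ranges did not, at 0.40 to 0.50 control-labelled and 0.01 to 0.26 ethanol-labelled. The late male-labelled pair was also the one whose scaled mean levels of the set did not overlap.

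**Figure D4:**
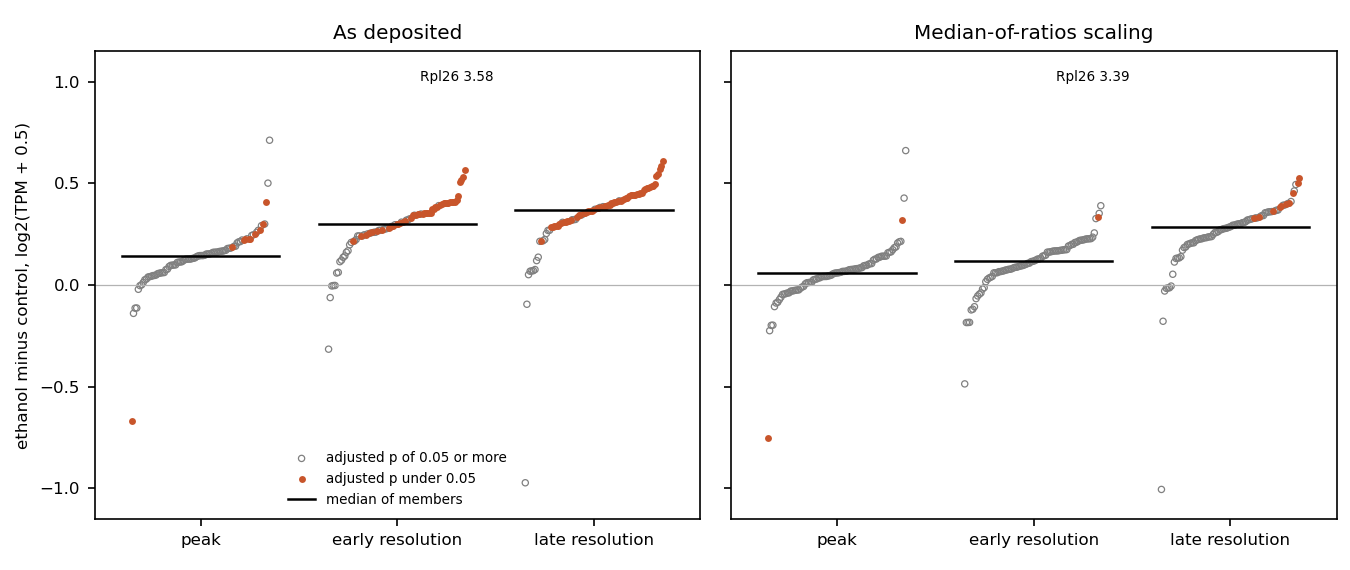
Log2 difference, ethanol-labelled minus control-labelled, of every tested member at each stage, as deposited and after median-of-ratios scaling, with members at an adjusted p under 0.05 filled and the median as a line. Rpl26 at early resolution lies beyond the axis and is printed with its value. The members' median is 0.14, 0.30 and 0.37 as deposited and 0.06, 0.12 and 0.29 after scaling at peak, early and late resolution.

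**Figure D5:**
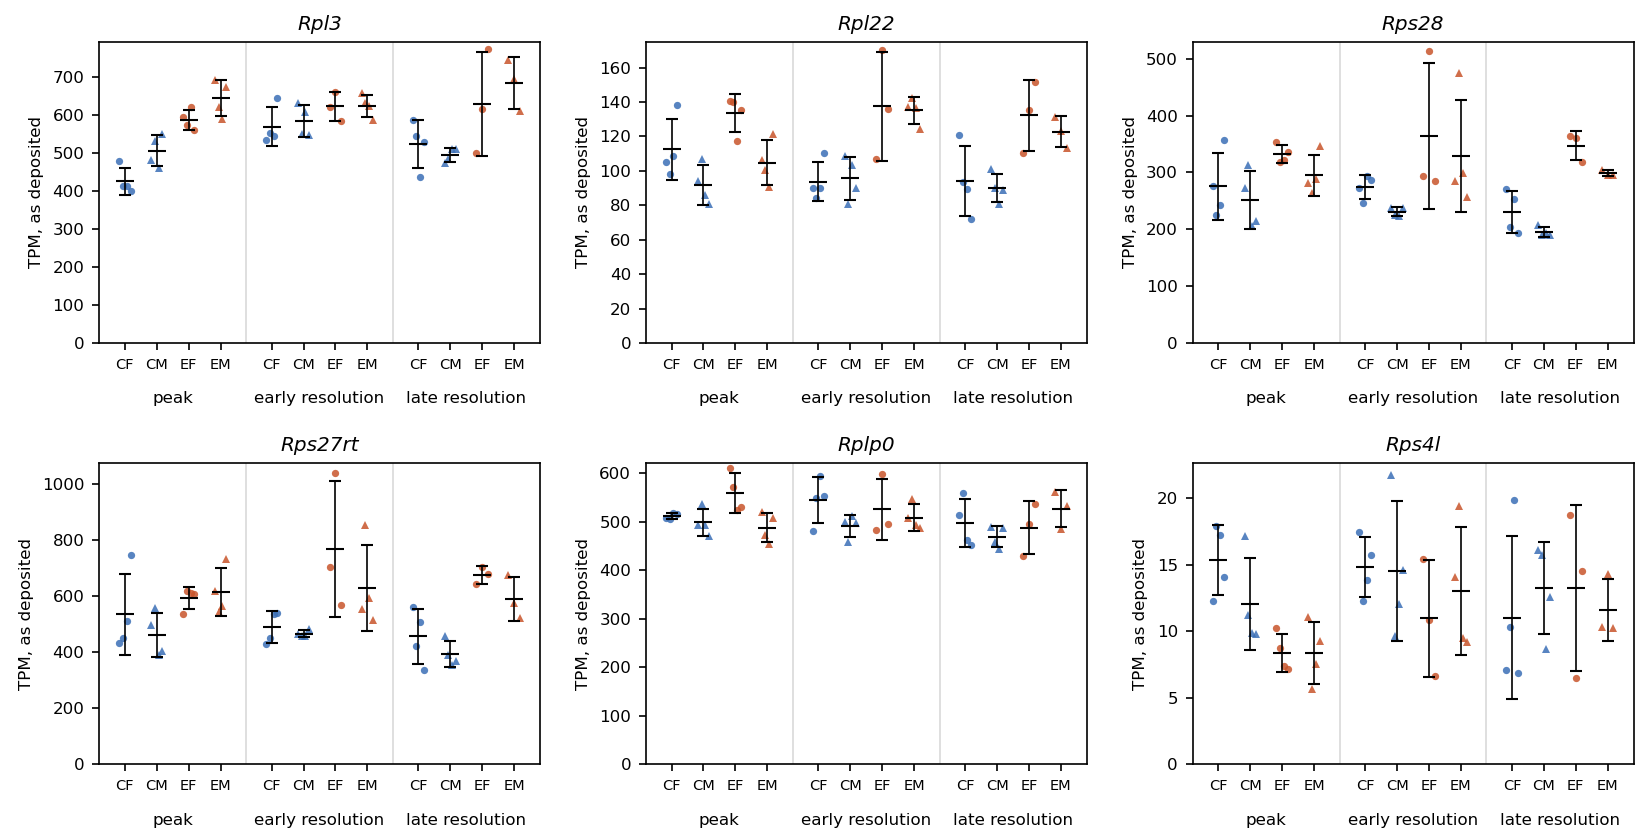
Deposited TPM of Rpl3, Rpl22, Rps28, Rps27rt, Rplp0 and Rps4l in each library (points) with group mean and SD (bars), by stage, diet label and sex label. Rpl3 is separated by diet label at peak, Rpl22, Rps28 and Rps27rt are mostly higher in ethanol-labelled libraries late, Rps4l is mostly lower in them at peak, and the late ranges of Rplp0 nearly coincide.

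The stalk proteins recruit elongation factors. Rplp0 (chr5, 115559467 to 115563727), a common reference gene, ran from 443 to 559 TPM in late control-labelled and from 429 to 562 TPM in late ethanol-labelled libraries. The ranges nearly coincided, and its difference was 0.05 ± 0.06 at peak and 0.07 ± 0.07 late (limma, adjusted p = 0.61 and 0.52), with an adjusted p of 0.99 early. Rplp1 differed late by 0.27 ± 0.11 (adjusted p = 0.10) and Rplp2 by 0.34 ± 0.11 (adjusted p = 0.040). Rpsa, a 40S protein that doubles as a laminin receptor, differed late by 0.29 ± 0.10 (adjusted p = 0.038), and none of these 4 passed after scaling. Rplp2 and Rpsa no longer passed as deposited when the length covariate was included (0.22 and 0.18, adjusted p = 0.18 and 0.17). Rps6, the S6 kinase substrate, differed late by 0.22 ± 0.09 (adjusted p = 0.087). Of the proteins that form the 5S particle, Rpl11 differed late by 0.45 ± 0.11 (adjusted p = 0.0075), or 0.36 scaled (adjusted p = 0.066), and Rpl5 by 0.07 ± 0.08 (adjusted p = 0.57). The difference between them was not tested.

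Differences within the set were read after setting each library's 80S mean equal, an alternative added after the data were seen. In that fit Rplp0 was lower in ethanol-labelled liver early, by -0.35 ± 0.09 (limma, adjusted p = 0.0064), and late, by -0.29 ± 0.09 (adjusted p = 0.017). At early resolution Rpl36al (-0.35), Rps6 (-0.28) and Rps4l (-0.66) were lower as well and none was higher, against 10.7% lower and 2.00% higher of all genes. Late, Rpl7l1 (-0.45), Rpl5 (-0.29), Rpl36al (-0.28), Rps19bp1 (-0.28) and Rpl15 (-0.22) were lower besides Rplp0, and Rps28 (0.25) and Rps27rt (0.23) higher, against 31.8% and 1.85%. At peak Rps4l (-0.82), Rps27l (-0.29), Rps19bp1 (-0.26) and Rpl36al (-0.26) were lower, against 16.1%, and none was higher, against 7.02%. The members that left the set in this way were paralogs, copies or like-named genes in 4 of 4 cases at peak, 2 of 4 early and 4 of 8 late. Such genes do not enter the mean that was set equal, whereas 77 of the 86 tested members do. The shares of all genes are therefore no like background here.

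Rpl22l1 showed no called diet difference. Its values at late resolution ran from 24.98 through a median of 48.6 to 60.3 TPM in control-labelled and from 24.4 through 61.8 to 85.04 TPM in ethanol-labelled libraries, and the difference was 0.31 ± 0.25 (limma, adjusted p = 0.42). Rpl26 differed by 3.58 ± 1.79 early (adjusted p = 0.17), a value set by which libraries listed it at 0. Rpl3l differed at peak by 0.71 ± 0.48 (adjusted p = 0.28), with 1 library far above the rest.

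Within a sex label fewer members passed. In female-labelled libraries Rpl3 was higher at peak (0.47 ± 0.10, limma, adjusted p = 0.0038), Rpl7 and Rpl22 early (0.44 ± 0.12 and 0.53 ± 0.15, adjusted p = 0.026 and 0.038) and none late, and none was lower, against 5.03%, 2.45% and 1.41% of all genes higher. In male-labelled libraries Rpl3 and Rps3 were higher at peak, Rpl22 and Rpl7 early and 14 members late, led by Rpl3 (0.46 ± 0.11, adjusted p = 0.0086), against 10.7%, 7.04% and 3.66% of all genes. Without late ethanol male 1 the late count was 0. After scaling none passed in female-labelled libraries at any stage, and 5 passed late in male-labelled libraries, against 5.65%: Rpl22, Rpl3, Rps4x, Rpl13 and Rpl7. That count was 0 without late ethanol male 1 and 11 without early ethanol female 3. Late female-labelled libraries had none by limma, and the late median differences were 0.35 (female-labelled) and 0.41 (male-labelled). No member's diet difference differed between sex labels at any stage on either scale, against 0.160%, 0.00889% and 0.0445% of all genes as deposited and 0.427%, 0.00% and 0.0711% scaled.

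Between sex labels the direction depended on the scaling. At peak 5 members were lower (Rpl22, Rps3, Rps2, Rpl4, Rpl5) and Rpl3 was higher in male-labelled libraries as deposited, against 46.7% lower and 4.26% higher of all genes. After scaling 20 were higher and none lower, against 16.2% and 15.4%. The scaled count was 7 without peak control female 2 and 40 without peak control female 4. Only Rpl3 was called on both scales: it ran from 399 through 519 to 621 TPM in female-labelled and from 461 through 568 to 691 TPM in male-labelled libraries, which overlapped widely. Its difference was 0.19 ± 0.07 as deposited (limma, adjusted p = 0.032) and 0.54 ± 0.10 scaled (adjusted p = 9.5e-05). Rpl22 went from -0.32 ± 0.10 as deposited (adjusted p = 0.0091) to 0.03 scaled. Among the paralogs, Rpl22l1 (0.62 ± 0.24, adjusted p = 0.041) and Rpl7l1 (0.47 ± 0.13, adjusted p = 0.0047) were higher in male-labelled libraries on the scaled values. At early and late resolution no member was called on either scale, against 0.596% and 3.25% of all genes in either direction as deposited and 1.83% and 9.55% scaled. Without late ethanol female 3 the scaled late count was 15.

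From peak to the resolution stages the counts depended on the scaling. As deposited, Rpl3 was higher at early resolution than at peak in control-labelled liver (0.31 ± 0.07, limma, adjusted p = 0.033), and no member differed late, against 0.729% and 0.676% of all genes. In ethanol-labelled liver Rps27l was higher early (0.37 ± 0.14, adjusted p = 0.048) and no member differed late, against 26.5% and 22.0% of all genes. After scaling Rpl5, Rpl8 and Rps3 were lower than at peak in ethanol-labelled liver at both resolution stages, and Rpl5, Rpl8, Rpl13, Rpl14 and Rpl22 in late control-labelled liver, against 14.6%, 12.4% and 0.961% of all genes lower. The scaled late control-labelled count was 0 without late control female 2 and 32 without peak control female 2. The ethanol-labelled counts ran from 0 (without early ethanol female 3) to 10 (without early ethanol female 1) early, and from 1 (without late ethanol female 1) to 6 (without early ethanol female 3) late. With scaling and length covariate together the ethanol-labelled counts were 31 lower early and 27 lower late, against 17.2% and 16.2%. These stage comparisons share their peak libraries. No member's diet difference changed between stages on either scale, against 0.00% (early minus peak), 3.98% (late minus peak) and 0.00% (late minus early) of all genes as deposited, and 0.178%, 5.93% higher with 6.06% lower, and 0.00% scaled.

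Over all 12 groups 61 of 86 members differed by limma's F test, against 74.9% of all genes, and 56 after scaling, against 70.7%. The members with the largest F after scaling were Rpl3, Rpl22, Rpl8, Rpl7 and Rpl5. With the 80S mean of each library set equal, 10 members differed, against 74.0%. That scaling removes the level these genes share, so a lower count among them is built in, and 74.0% is no like background.

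Genes that work with the ribosome did not follow it uniformly. Late, the ribosomal proteins Fau (0.50 ± 0.12) and Rack1 (0.26 ± 0.08), which do not carry the family's names, were higher in ethanol-labelled liver as deposited (limma, adjusted p = 0.0044 and 0.028). After scaling Fau still passed (0.42, adjusted p = 0.034) and Rack1 did not (0.17, adjusted p = 0.22). Of 16 translation factors and other TOP mRNAs, 3 were higher and 1 lower at peak, 6 and 0 early, and 5 and 1 late, beside 17.3%, 14.3% and 8.82% of all genes higher. After scaling 2, 0 and 2 were higher, beside 15.0%, 7.62% and 8.56% of all genes. The chaperone subunit Naca was higher early as deposited (0.51 ± 0.12, adjusted p = 0.0030) but did not pass after scaling (0.32, adjusted p = 0.063). The histone chaperone Nap1l1 was lower at peak (-0.47 ± 0.10, adjusted p = 0.00074) and late (-0.36 ± 0.11, adjusted p = 0.029) as deposited. After scaling it was lower at peak, early and late (-0.55, -0.45 and -0.44, adjusted p = 1.3e-06, 0.00016 and 0.00039). Of 34 ribosome biogenesis genes 11 were higher and 1 lower at peak, where 17.3% and 9.81% of all genes were called, among them the snoRNP protein Gar1 (0.58 ± 0.10, adjusted p = 2.7e-05) and the 60S maturation factor Eif6 (0.60 ± 0.11, adjusted p = 6.8e-05). Early and late, 1 and 3 of them were higher, beside 14.3% and 8.82% of all genes, and 1 and 0 lower, beside 2.46% and 3.98%. After scaling 2 were higher and 1 lower at peak, beside 15.0% and 20.7% of all genes. Gar1 and Eif6 were the 2 higher (0.53 and 0.52, limma, adjusted p = 0.0010 and 0.0051). Whether these patterns differ between lists was not tested.

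Of 7 snoRNA host transcripts, which are themselves TOP RNAs, Snhg6 was higher at all 3 stages (0.74 ± 0.14, 0.64 ± 0.14 and 0.80 ± 0.15, limma, adjusted p = 9.9e-05, 0.0016 and 0.00027). Snhg3 went the other way at peak, by -0.70 ± 0.24 as deposited (adjusted p = 0.031) and -0.78 scaled (adjusted p = 0.041). As deposited, Snhg1 passed only at peak (0.56 ± 0.15, adjusted p = 0.0046) and Snhg12 only early (0.48 ± 0.16, adjusted p = 0.034). Of 13 tested genes of mTORC1 and its control none passed at peak or early. There 17.3% and 14.3% of all genes were higher and 9.81% and 2.46% lower. Late, S6 kinase Rps6kb1 (-0.32 ± 0.10, limma, adjusted p = 0.035) and the mTORC1 inhibitor Ddit4 (-1.26 ± 0.41, adjusted p = 0.038) were lower, against 3.98% of all genes. Both also passed after scaling (-0.38 and -1.32, adjusted p = 0.0033 and 0.0375). The mitochondrial ribosomal proteins, a separate family of 78 tested genes, had 0 higher and 8 lower at peak, 8 higher early and 7 higher late, beside 9.81% of all genes lower at peak, 14.3% higher early and 8.82% higher late. Of 81 nuclear genes for oxidative phosphorylation, also short transcripts of abundant proteins, 2, 22 and 4 were higher, beside 17.3%, 14.3% and 8.82% of all genes. These counts are as deposited. After scaling the mitochondrial ribosomal genes had 21 lower at peak, beside 20.7% of all genes. The oxidative phosphorylation genes had 0 higher early and late, beside 7.62% and 8.56% of all genes.

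Marker sums of some other cell types differed between diet labels as well. The 5 macrophage markers summed to 214 TPM (median, range 130 to 534) in late control-labelled and 375 TPM (312 to 503) in late ethanol-labelled libraries. At peak their sums were 147 to 310 TPM against 143 to 396 TPM, and early 106 to 351 TPM against 283 to 478 TPM. At late resolution the 4 listed T and NK cell markers summed to 1.14 to 6.41 TPM in control-labelled against 4.21 to 13.5 TPM in ethanol-labelled libraries. The 4 B cell markers summed late to 0.937 to 4.74 TPM against 4.32 to 37.2 TPM. The 5 hepatocyte markers summed late to 99360 to 178400 TPM against 172800 to 199300 TPM. All of these were above 0 in every library, whereas the pancreas marker Prss1 was at 0 in all 45. Stellate cell markers summed to 46.8 to 93.1 TPM in early control-labelled and 97.9 to 135 TPM in early ethanol-labelled libraries, which did not overlap. Late neutrophil sums (medians 25.8 and 25.5 TPM) and erythroid sums (342.6 and 320.7 TPM) were close or lower in ethanol-labelled libraries, as was the pancreas list (24.96 and 15.4 TPM). The pancreas sum was almost wholly 1 transcript, Cela1, since Cpa1 reached no more than 0.0626 TPM and Pnlip no more than 0.127 TPM. It is therefore no sign of pancreatic cells. The part of these cell types in the diet differences of the ribosomal protein genes was not tested.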

How the data were processed

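The authors deposited 1 table of TPM (the genome build is mm10 per the submitters' processing notes), with 24972 entries and 45 libraries. Stranded mRNA libraries were made from column-purified RNA, per the labels' protocols. How reads were aligned, counted and annotated is not given in the sources used here. Each library sums to 999999.4 to 1000000.5, so sequencing depth is unknown and counting error cannot be given. The 26 names turned into dates were left out (0.0441% of TPM).

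Values were taken as log2(TPM + 0.5), which understates changes of low genes, and a gene was tested where its mean reached 0.5 TPM, which left 11244. The test was limma 3.58.1 (R 4.3.3, trended variance) on 12 group means with 33 residual degrees of freedom, adjusted by Benjamini-Hochberg over all genes. Scaled values divide each library by its median-of-ratios factor over the 13216 genes above 0 in every library. In simulated data on 11244 genes the late diet comparison found 93 of 100 genes that were given a log2 difference of 1, with 7 false calls. The largest late difference called among the members was 0.61 (Rps28). Differences that small were not simulated, so the simulation cannot show how many of them the test would find. Whether replicate numbers pair libraries was checked by correlating their deviations from group means, and in peak female-labelled libraries all 4 pairs were over 0.1. Shared 50-mers, lengths and coordinates come from GENCODE M21. Figures and tables used Python 3.11.15, numpy 2.4.6, pandas 2.3.3 and matplotlib 3.10.9.

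The members, related lists and alternatives were chosen with earlier results of these data known, and the fits with a length covariate, the scaling to the 80S mean and the scaled fits of matching libraries were added after the data were seen. The naming rule took the ends of each comparison after scaling, the highest and lowest levels, all paralogs, the stalk genes and Rpsa. It also took the largest F values, the genes most like the 80S mean and up to 4 genes of each related list. Those of the related lists had the smallest adjusted p of any diet comparison as deposited, and need not be typical of their lists. Genes named for not overlapping or as called, and Rps6, Rpl5 and Rpl11, were picked after their values were seen. Results for some genes are not reported here.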

Additional observations from a re-analysis of the deposited data

Results flagged for a closer look

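In groups of 4 libraries, the highest or lowest library was compared with the gap to its nearest neighbour, over 12 measures. Of 108 such groups 11 had a library that stood apart, and chance gives about 1 in 20.

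Early ethanol male 2 stood apart in 4 measures. Its 80S share of TPM was 3.69% where the others of its group had 2.64% to 2.79%, and its scaled mean log2 80S level was 8.55 where they had 7.79 to 7.90. Its Rpl22l1 level was 79.97 TPM where they had 48.3 to 52.6 TPM, and its Rpl26 level was 262 TPM where they had 54.4 to 66.3 TPM.

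Peak ethanol female 1, the library with skeletal muscle transcripts, had Rpl3l at 51.9 TPM where the others of its group had at most 0.112 TPM. Its Rps27rt level was 536 TPM where they had 607 to 617 TPM.

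Rpl3 stood at 478 TPM in peak control female 1, where the others had 399 to 412 TPM, and at 645 TPM in early control female 4, where the others had 534 to 552 TPM. Rpl3l, near 0 throughout, was listed at 0.127 TPM in peak ethanol male 2 and at 0.130 TPM in late control female 2, with 0 in the others of both groups. It was listed at 0.443 TPM in early control female 4, where the others had 0.0816 to 0.141 TPM.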

How the results depend on the processing

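Sequencing depth is unknown, so no limit from counting can be set. Counts of members called moved with most choices, and unless a value says otherwise the cause was not tested. They are given as higher in ethanol-labelled liver at peak, early and late, against 9, 46 and 62, unless said otherwise. Median-of-ratios scaling gave 1, 1 and 10, with 20 by sex label at peak, 0 and 0 for diet in female-labelled peak and early, 0 and 5 in male-labelled early and late, 0 and 5 for control-labelled early and late minus peak, and 3 and 3 for ethanol-labelled. Libraries of a stage alone gave 8 early and 40 late, 3 and 0 in female-labelled peak and early, and 0 and 1 in male-labelled early and late. Quantile normalization gave 3 higher and 1 lower early, 38 late, 3 by sex label early, 0 in male-labelled early, 1 in female-labelled late, and 2 and 2 for ethanol-labelled early and late minus peak. Libraries whose sex-chromosome transcripts match the label allowed only ethanol female against control male, since late control female 1 entered no comparison. They gave 22 early and 0 lower at peak. With scaling they gave 0 at peak in each direction, 0 early and 41 late, and Rpl3 reversed to -0.22 at peak. Without a filter on low values there were 3 in female-labelled peak and 0 for ethanol-labelled early minus peak, with a pseudocount of 2 there were 2 in female-labelled peak, and the 80S genes alone gave 0 lower at peak and 0 for ethanol-labelled early minus peak.

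Same-numbered libraries of the 2 diet labels correlated at -0.389 to 0.245 over 21 pairs, and 6 pairs correlated best with their own number. All 4 pairs of peak female-labelled libraries were over 0.1 (0.114 to 0.204) and best with their own number. There the replicate block kept the single call, Rpl3 (adjusted p = 0.034 by limma). In the other stage and sex label groups at least 1 pair was under 0.1. Early male-labelled pairs had 3 of 4 over it (-0.0414 to 0.245), 2 of them best with their own number. Late pairs ran from -0.389 to -0.00794 in female-labelled and from -0.0639 to -0.0186 in male-labelled libraries. So few pairs cannot show whether libraries there share more than a number. A replicate block (15 residual degrees of freedom, 3 libraries without a partner left out) gave 5 late, 0 in male-labelled peak and late, 1 in male-labelled early and 0 in female-labelled early. With scaling the replicate block gave 1, 1 and 2, with 1 in male-labelled peak and 0 in female-labelled peak and early and in male-labelled early and late.

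Scaled to the 80S mean there were 0 higher and 4 lower at peak, 0 and 4 early, 2 and 6 late, 2 by sex label at peak, 0 and 1 in female-labelled peak and early, 1, 0 and 1 in male-labelled peak, early and late, 0 and 1 for control-labelled early and late minus peak, 0 for ethanol-labelled early minus peak and 10 over the 12 groups. Rpl9 early reversed to -0.018, Rps3 early to -0.096 and Rpl10a late to -0.053. With scaling Rpl22 by sex label at peak reversed to 0.031. The length covariate gave 34 at peak and 27 late, 35 by sex label at peak, 6, 7 and 1 in female-labelled and 11, 5 and 2 in male-labelled peak, early and late. With scaling it gave 15 at peak, 1 higher and 1 lower early and late, 29 and 1 by sex label at peak and early, 1 in female-labelled early, 20, 0 and 1 in male-labelled peak, early and late, and 31 and 27 for ethanol-labelled early and late minus peak.

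With each library left out in turn, the counts ran from 6 to 16 at peak (0 to 1 lower), 3 to 53 early and 36 to 66 late. By sex label they ran from 2 to 11 at peak and 0 to 5 late. In female-labelled liver they ran from 1 to 3 at peak, 0 to 11 early and 0 to 12 late, and in male-labelled liver from 0 to 4, 0 to 3 and 0 to 25. Stage counts ran from 0 to 1 (control-labelled early), 0 to 5 and 0 to 1 (ethanol-labelled early and late), and the count over 12 groups from 51 to 66. For named members, 22 differences were recomputed 1311 times: 1155 kept direction and call, 141 lost and 10 gained a call, and 5 reversed. Most recomputations left out 1 library, often of a stage outside the comparison, so many were bound to keep the call. Median-of-ratios scaling changed the call or direction of 12 of the 22, the length covariate with scaling 16, and scaling to the 80S mean 17. Quantile normalization changed 7 and the length covariate alone 4.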

Other observations

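Rpl22l1 had 5 libraries below all others: peak control female 1 at 25.4 TPM, peak ethanol female 1 at 31.0 TPM, early control female 1 at 31.3 TPM, late control female 3 at 24.98 TPM and late ethanol female 1 at 24.4 TPM. The other 40 libraries ran from 37.7 to 101.3 TPM with a median of 56.6 TPM. In those 5 libraries, in the same order, Rps26 stood at 434, 464, 410, 401 and 526 TPM, where the others had 210 to 477 TPM with a median of 286 TPM. Rpl39 stood at 113, 128, 111, 97.9 and 111 TPM in them, where the others had 120 to 318 TPM with a median of 175 TPM. All 5 are female-labelled and they come from both diet labels and all 3 stages. They were picked after their values were seen, and nothing about them was tested.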
